A study of Mus musculus with 8 samples.

Results

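Genes for core proteins of the spliceosome and for SR proteins were followed in oocytes of Setd1b conditional knockout mice and of control mice. The set was drawn from genes of the deposited count table whose mouse symbol begins with Snrp, Sf3a or Sf3b, or with Srsf or Prpf followed by a digit, leaving out pseudogenes. Of 45 such genes considered, 2 are annotated as processed pseudogenes and were left out, so that 43 protein-coding genes remained of 37224 in the table: 11 Snrp, 11 Srsf, 9 Sf3 and 12 Prpf genes. Prpf40b and Srsf12 were too scarce to be tested, which left 41 tested genes of 11066.

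The samples were MII oocytes, mature eggs halted in the metaphase of meiosis II, sequenced as 1 cell per library. The knockout group held 4 oocytes of Setd1bGdf9cKO females, and the control group held 4 oocytes of control females whose alleles the labels do not state. Females of both genotypes were superovulated, and no other treatment is listed. The SETD1B protein methylates histone H3 on lysine 4, a mark of active promoters, and Gdf9, after which the deletion is named, is active in growing oocytes. The labels do not say whether the 4 oocytes of a genotype came from different females. The p-values set the difference between genotypes against the spread among these cells and libraries only. That spread may not include differences between females.

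Spliceosomes are assembled from small nuclear ribonucleoproteins (snRNPs), each a small nuclear RNA with a ring of Sm proteins and further proteins of its own. U1 binds the 5′ splice site, U2 with its SF3A and SF3B complexes binds the branch point, and the tri-snRNP of U4, U6 and U5 brings in the catalytic core, while SR proteins bind exons and help to choose splice sites. The MII oocyte transcribes little and lives on mRNA stored during growth, part of which gains or loses poly(A) tail during maturation. The libraries were primed on poly(A) tails, so fewer molecules and shorter tails cannot be told apart in any value below.

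Knockout libraries held 9488899 to 11313502 counts each, and control libraries 11029602 to 13519404. Values are in CPM, the counts of a gene scaled by the library's total and composition, and 3 counts correspond to 0.225 to 0.330 CPM. Setd1b itself averaged 3.99 ± 0.925 CPM in knockout and 10.9 ± 1.46 CPM in control oocytes (SD, n = 4 each), which gave a log2 fold change of -1.44 with an SE of 0.41 (adjusted p = 0.0221). Of 10 oocyte markers all passed the abundance filter, and their summed level was 8730 to 13400 CPM in knockout and 9440 to 12600 CPM in control libraries. Of these 10, 4 were higher in the knockout, with log2 fold changes of 3.02 for Zp2, 1.71 for Zp3, 1.66 for Nlrp5 and 1.54 for Zp1, and 2 were lower, Ooep (-0.86) and Dazl (-0.59). The 18 markers of cumulus and granulosa cells summed to 53.4 to 121 CPM in knockout and 100 to 150 CPM in control libraries. Cyp19a1, which was lower in the knockout (-0.85), and Kitl held most of those counts, and 8 of the 18, among them Amh, Foxl2, Inha and Lhcgr, had no count in any library. The 10 markers of blood and stroma summed to 26.8 to 51.3 CPM in knockout and 50.8 to 77.7 CPM in control libraries, nearly all of it Pecam1, lower in the knockout (-0.83), and Dcn, and 5 of them, Ptprc and Cdh5 included, had no count. The part of these differences in the results below was not tested.

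Spliceosomal transcripts differed widely in level within each family. Levels of different genes are compared here per length, as CPM per kilobase of annotated exons (RPKM). Among the 43 genes the Sm gene Snrpd1 was the highest in both groups, at 319.8 ± 67.4 RPKM in knockout and 470.1 ± 139 RPKM in control oocytes (SD, n = 4 each), followed by Snrpd3 at 258 ± 14.6 RPKM in knockout and 345 ± 70.1 RPKM in control oocytes. The control SDs of these 2 genes overlapped. The highest Sf3 genes were Sf3b5, at 203 ± 46.8 RPKM in knockout and 112 ± 33.0 RPKM in control oocytes, and Sf3b1, at 149 ± 8.41 RPKM in knockout and 162 ± 14.2 RPKM in control oocytes. Of the Prpf genes described here Prpf6 was the highest by its mean over all libraries, with 19.5 ± 1.45 RPKM in knockout and 26.6 ± 7.08 RPKM in control oocytes, though in the knockout alone Prpf8 was above it, at 21.4 ± 0.841 RPKM. Srsf7 was the highest SR protein gene by the same mean, with 29.7 ± 9.24 RPKM in knockout and 30.6 ± 6.77 RPKM in control oocytes. In control oocytes alone Srsf3, at 39.4 ± 4.17 RPKM, and Srsf10, at 34.9 ± 9.67 RPKM, had higher means than Srsf7. In the knockout Srsf3 was at 19.7 ± 3.80 RPKM and Srsf10 at 24.6 ± 5.63 RPKM, and the order of these 3 genes was not tested. At the low end, Snrpb, Snrpc, Srsf4, Prpf4, Prpf19, Sf3a2 and the 2 untested genes lay below 1 RPKM in both groups.

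**Figure D1:**
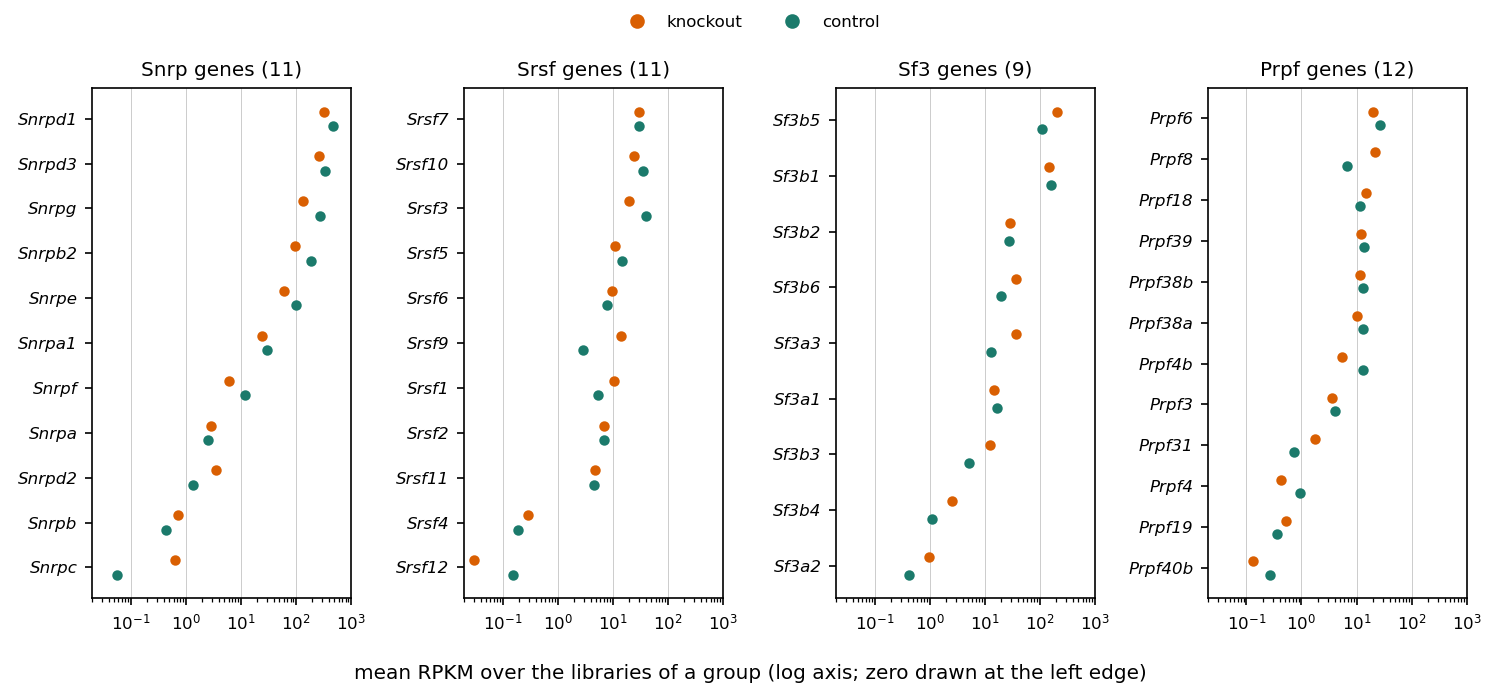
Mean level of each of the 43 genes, in RPKM on a log axis, in knockout (upper point of each gene) and control oocytes (lower point), by family, with 4 libraries per group and no error bars. Levels span from under 1 RPKM for Snrpc, Srsf4, Sf3a2 and Prpf40b to over 100 RPKM in both groups for Snrpd1, Snrpd3, Snrpg, Sf3b1 and Sf3b5, and Srsf12 had no count in the knockout.

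CPM values are relative to the rest of a library and do not give the amount of transcript per oocyte. On that scale 7 of the 41 tested genes were higher in knockout oocytes and 5 were lower, at an adjusted p under 0.05. That is 29.3% of the tested spliceosomal and SR protein genes, against 25.8% of all tested genes (13.6% higher and 12.2% lower). The higher genes were Prpf8, Srsf9, Sf3a3, Sf3b3, Srsf1, Sf3b5 and Snrpc, and the lower genes were Srsf3, Snrpg, Snrpe, Snrpb2 and Prpf4b. By family, the 9 Sf3 genes had 3 higher and 0 lower, with a median of 0.86 on the log2 scale, and the 11 Snrp genes had 1 higher and 3 lower, with a median of -0.41. The 11 tested Prpf genes had 1 higher and 1 lower with a median of -0.20, and the 10 tested Srsf genes had 2 higher and 1 lower with a median within 0.01 of 0, beside a median of 0.10 over all tested genes. These are counts and medians of small families, and the differences between families were not tested.

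For 7 genes every knockout library lay above every control library, and for 6 every one lay below, of the 41, where 17.7% of all tested genes lay above and 13.6% below. Among the called genes the groups overlapped for Sf3b5 and Prpf4b. Sf3a2, above in the knockout, and Snrpd3 and Snrpf, below in the knockout, had groups that did not overlap but missed the threshold.

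Direction over a whole family depended on how libraries were scaled. The 43 genes took 0.382 to 0.407% of counts in knockout and 0.340 to 0.364% in control libraries, but summed to 3300 to 3800 CPM in knockout and 3590 to 4550 CPM in control libraries once totals were scaled for composition, with scaling factors of 1.07 to 1.22 in knockout and 0.800 to 0.947 in control libraries. With library totals alone the median over all tested genes moved to 0.49 on the log2 scale in place of 0.10, and 9 of the genes were higher and 2 lower, where 21.5% of all tested genes were higher and 4.61% lower. The Prpf median then turned to 0.23 and the Srsf median to 0.41, while the Snrp median was within 0.01 of 0 and the Sf3 median 1.28. Taken relative to the transcriptome-wide median, the Sf3 median was 0.76 and the Snrp median -0.52, and they were 0.79 and -0.49 with library totals alone.

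**Figure D2:**
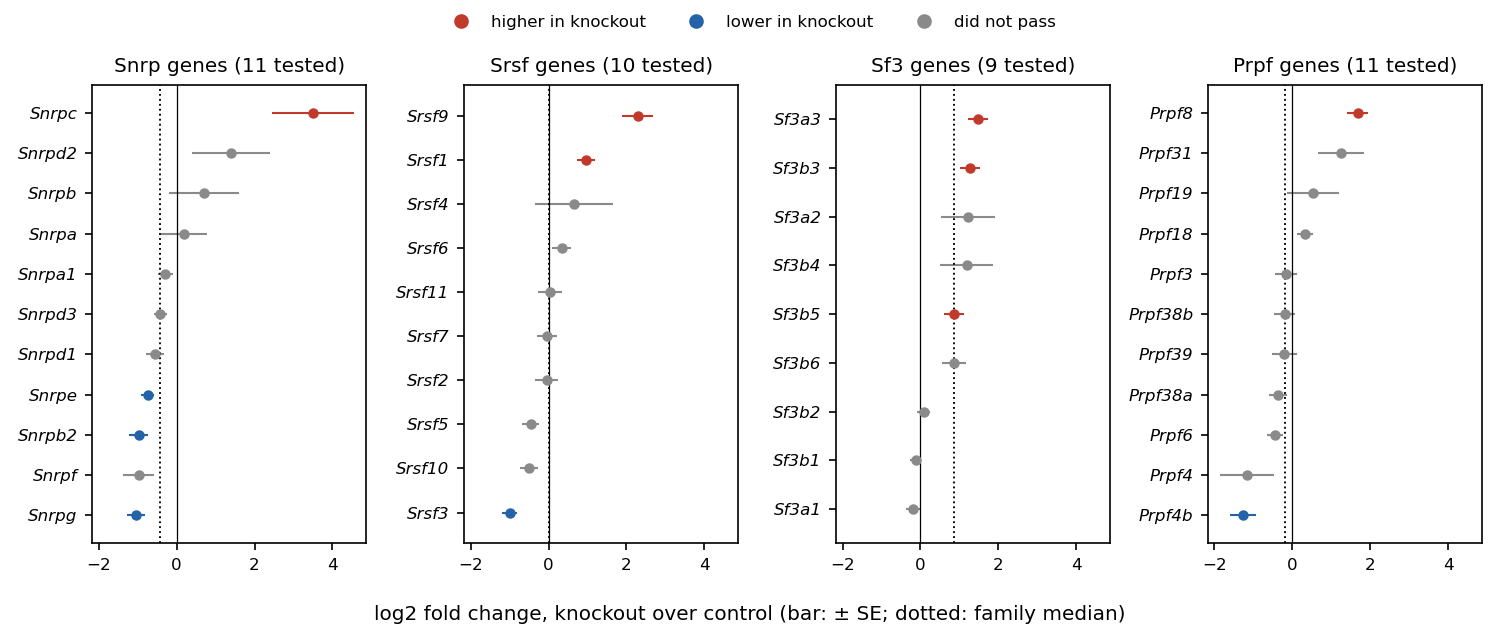
Log2 fold change of knockout over control for the 41 tested genes by family, with bars of ± 1 SE, a dotted line at the family median and colours for genes higher, lower or not past an adjusted p of 0.05. In the Sf3 panel all 3 coloured genes lie to the right of 0, and in the Snrp panel the Sm genes Snrpe and Snrpg and the U2 gene Snrpb2 lie to the left while Snrpc lies far to the right with a wide error.

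**Figure D3:**
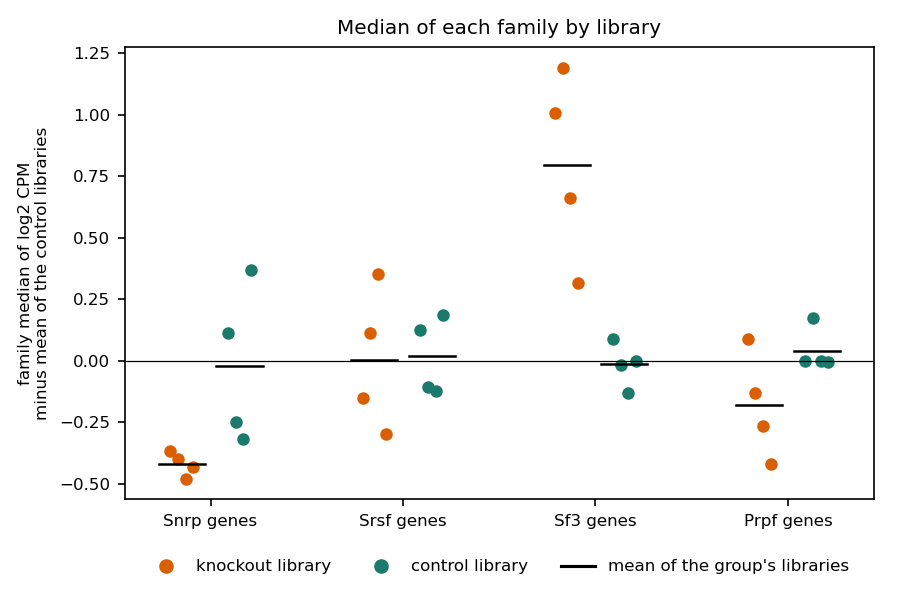
Family median of log2 CPM in each library, relative to each gene's mean over the control libraries, with points for the 4 knockout and 4 control libraries and a line at their mean. The Sf3 medians of the knockout libraries (0.31 to 1.19) lie above those of the control libraries (-0.13 to 0.09), the Snrp medians of the knockout libraries (-0.48 to -0.37) lie below those of the control libraries (-0.32 to 0.37), and the Srsf and Prpf medians overlap.

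The promoters of these genes were compared because SETD1B, the protein targeted in the knockout, acts on chromatin at promoters. RefSeq promoters on GRCm38.p6, from 250 bases before to 50 bases after a gene's start, were matched by symbol for 38 of the 43 genes. Shown are the 2 genes higher and the 2 genes lower in the knockout with the smallest p and a matched promoter, chosen after their values were seen, 5′ to 3′ on the gene's strand (plus for all 4) with each CpG in capitals.
Prpf8, higher in knockout, chr11:75486527-75486826: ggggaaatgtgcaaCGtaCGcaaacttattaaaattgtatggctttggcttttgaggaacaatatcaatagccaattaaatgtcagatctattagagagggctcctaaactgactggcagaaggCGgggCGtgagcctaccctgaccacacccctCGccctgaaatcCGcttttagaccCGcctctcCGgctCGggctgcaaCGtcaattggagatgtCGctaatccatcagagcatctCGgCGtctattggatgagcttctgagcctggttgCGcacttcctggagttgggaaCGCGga
Srsf9, higher in knockout, chr5:115326927-115327226: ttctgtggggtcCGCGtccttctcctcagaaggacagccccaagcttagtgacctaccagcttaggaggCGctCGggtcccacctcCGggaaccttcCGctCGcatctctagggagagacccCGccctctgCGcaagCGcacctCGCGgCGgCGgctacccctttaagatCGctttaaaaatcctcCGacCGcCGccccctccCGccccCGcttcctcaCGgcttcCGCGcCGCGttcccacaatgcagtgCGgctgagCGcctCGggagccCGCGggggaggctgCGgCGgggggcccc
Srsf3, lower in knockout, chr17:29032410-29032709: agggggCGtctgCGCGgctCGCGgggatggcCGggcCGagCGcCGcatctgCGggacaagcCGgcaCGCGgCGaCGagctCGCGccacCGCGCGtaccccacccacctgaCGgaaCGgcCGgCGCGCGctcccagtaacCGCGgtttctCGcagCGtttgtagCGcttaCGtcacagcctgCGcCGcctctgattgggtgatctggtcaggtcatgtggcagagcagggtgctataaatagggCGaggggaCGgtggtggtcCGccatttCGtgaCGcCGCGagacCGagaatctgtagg
Snrpg, lower in knockout, chr6:86371290-86371589: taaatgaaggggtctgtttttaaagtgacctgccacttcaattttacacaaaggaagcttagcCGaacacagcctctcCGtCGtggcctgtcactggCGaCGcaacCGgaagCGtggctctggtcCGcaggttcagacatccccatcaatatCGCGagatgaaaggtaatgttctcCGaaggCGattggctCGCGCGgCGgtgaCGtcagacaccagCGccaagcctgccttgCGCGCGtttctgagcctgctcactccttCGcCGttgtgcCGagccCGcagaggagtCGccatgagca
The 4 promoters hold 16, 32, 42 and 26 CpGs in the order shown, and genes of both directions had many.

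Over the 38 promoters the median was 24 CpGs, with 7 to 49 per promoter, against 21 over the 8183 tested genes with a promoter in the table and 7 over all 27025. The 6 matched genes that were higher had a median of 21 CpGs and the 5 that were lower a median of 24. The letters CCGGAAG or CTTCCGG, the core recognised by ETS factors, occurred in 17 of the 38 promoters (44.7%), in 18.8% of promoters of tested genes and in 9.12% of all promoters. They occurred in 3 of the 6 matched higher genes, which were Sf3a3, Sf3b3 and Snrpc, and in 4 of the 5 matched lower genes, which were Prpf4b, Snrpb2, Snrpe and Snrpg, beside 10 of the 25 matched genes that were not called (40%). Over all tested genes the order was the reverse, with these letters in 24.4% of the promoters of higher and 14.4% of those of lower genes. A CCAAT box (CCAAT or ATTGG) was in 39.5% of the 38, against 39.3% for tested genes. The letters TATAAA or TTTATA were in 10.5%, against 7.17% for tested genes, and the YY1 letters AAGATGGC or GCCATCTT in 5.26%, against 4.99%. These matches describe letters in a window of 300 bases and no binding.

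Sm proteins form the ring shared by U1, U2, U4 and U5. Of the 7 Sm genes 2 were lower, Snrpg and Snrpe, and 0 were higher, where 12.2% of all tested genes were lower and 13.6% higher. The median log2 fold change of the 7 was -0.56. At an unadjusted p under 0.05 edgeR had 5 lower and 0 higher, where 17.6% of all tested genes were lower and 20.3% higher at that threshold. DESeq2 with adjustment had 4 lower and 0 higher, where 13.5% of all genes it tested were lower and 15.8% higher. Snrpg (ENSMUSG00000057278; chromosome 6, 86371583 to 86378902, mm10) encodes the smallest of them and had 34.0, 48.8, 53.3 and 49.5 CPM in knockout replicates 1 to 4, against 93.6, 77.8, 78.8 and 130.0 CPM in control replicates 1 to 4. Every knockout library lay below every control library, and the log2 fold change was -1.03 ± 0.23 (SE here and below, with n = 4 per group; adjusted p = 0.007593). Snrpe (ENSMUSG00000090553; chromosome 1, 133603871 to 133610291) had 75.4, 84.2, 83.1 and 89.7 CPM in knockout replicates 1 to 4, against 159, 116, 128 and 153 CPM in control replicates 1 to 4. Its groups did not overlap either, with a log2 fold change of -0.74 ± 0.17 (adjusted p = 0.008922), but with library totals alone the value was -0.34 and missed the threshold (adjusted p = 0.131).

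Reads of Snrpe are uncertain because a processed copy of it was counted beside it. Snrpert, a single-exon pseudogene on chromosome 2 (131322088 to 131322366), had 0.597 to 0.777 times the counts of Snrpe in each of the 8 libraries. It averaged 61.9 ± 4.39 CPM in knockout and 101.8 ± 22.9 CPM in control oocytes (SD, n = 4 each), and its log2 fold change was -0.72 ± 0.20 (adjusted p = 0.02246). Its symbol carries no pseudogene suffix, and it was left out on its annotation after its value had been seen. Counted as a Snrp gene, it would bring the lower genes to 6.

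The other Sm genes did not pass the test. Snrpd1, the most abundant per length, had 203, 278, 339 and 251 CPM in knockout replicates 1 to 4, against 413, 334, 279.8 and 547 CPM in control replicates 1 to 4, a log2 fold change of -0.56 ± 0.23 (adjusted p = 0.09414) with overlapping groups. Snrpd3 had 147 to 168 CPM in knockout and 172 to 265 CPM in control libraries (-0.41, adjusted p = 0.1037), and Snrpf had 4.35 to 5.65 CPM in knockout and 7.58 to 12.9 CPM in control libraries (-0.98, adjusted p = 0.08982). For these 2 genes no knockout library reached a control library, and DESeq2 called both (adjusted p = 0.04969 for Snrpd3 and 0.01455 for Snrpf). Snrpb and Snrpd2 were near the floor, at 1.40 ± 0.773 CPM in knockout and 0.852 ± 0.817 CPM in control oocytes for Snrpb and at 2.15 ± 1.30 CPM in knockout and 0.820 ± 0.883 CPM in control oocytes for Snrpd2, with log2 fold changes of 0.70 and 1.40 that missed the threshold.

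Of the 4 genes for U1 proteins described here, 1 was higher, 2 did not pass and 1, Prpf40b, was too scarce to test. Snrpc (ENSMUSG00000024217; chromosome 17, 27839974 to 27851968), a zinc finger protein of U1 that steadies its pairing with the 5′ splice site, had 3.07, 7.68, 3.41 and 1.68 CPM in knockout replicates 1 to 4, against 0.330, 0, 0.165 and 0.899 CPM in control replicates 1 to 4. The groups did not overlap, yet the values rest on 199 counts over all knockout libraries and 14 over all control libraries. Its log2 fold change was 3.49 ± 1.06 (adjusted p = 0.03004). The call was lost without knockout replicate 1, 2 or 3 or control replicate 1 or 3 (adjusted p of 0.05529 to 0.1169), and the value moved to 2.96 when knockout replicate 2 was left out and to 4.56 when control replicate 4 was. Snrpa, the U1 protein that binds a stem-loop of the RNA, had 5.04 ± 2.56 CPM in knockout and 4.45 ± 2.15 CPM in control oocytes (0.18, adjusted p = 0.8536), and the U1-associated protein gene Prpf39 had 52.8 ± 17.3 CPM in knockout and 61.0 ± 23.0 CPM in control oocytes (-0.21, adjusted p = 0.666). Prpf40b had counts in 2 of 4 knockout and 3 of 4 control libraries, with at most 2.42 CPM in knockout and 3.80 CPM in control libraries.

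The 2 proteins that bind a stem-loop of U2 RNA as a pair are encoded by Snrpb2 and Snrpa1. Snrpb2 (ENSMUSG00000008333; chromosome 2, 143063039 to 143072853) had 203, 266, 345 and 274 CPM in knockout replicates 1 to 4, against 624, 418, 357 and 731 CPM in control replicates 1 to 4. All knockout libraries were below all control libraries, though knockout replicate 3 and control replicate 3 lay close together, and the log2 fold change was -0.97 ± 0.24 (adjusted p = 0.01317). It was -0.56 and no longer called with library totals alone (adjusted p = 0.0574). Snrpa1 had 74.8 ± 3.75 CPM in knockout and 91.2 ± 16.8 CPM in control oocytes (-0.29, adjusted p = 0.2875).

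**Figure D4:**
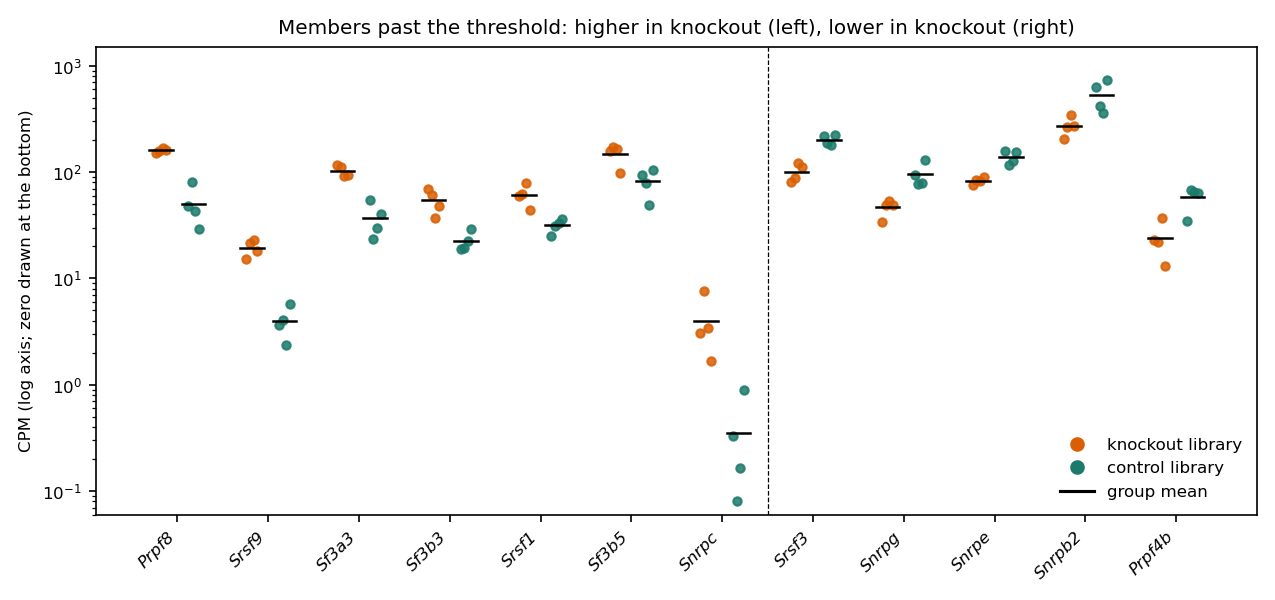
CPM on a log axis in each library for the 12 genes past the threshold, knockout left of control within each gene, with a line at the group mean; the genes left of the dashed line were higher and those right of it lower in the knockout, and the control library of Snrpc without counts is drawn at the bottom. The points of the groups are apart for 10 of the genes and overlap for Sf3b5 and Prpf4b.

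SF3A and SF3B are the U2 complexes that hold the branch point. Of their 9 genes 3 were higher and 0 lower, where 13.6% of all tested genes were higher and 12.2% lower. There were 4 higher and 0 lower at an unadjusted p under 0.05 in edgeR, where the shares were 20.3% and 17.6%. DESeq2 with adjustment also had 4 higher and 0 lower, where 15.8% of all genes it tested were higher and 13.5% lower. Sf3a3 (ENSMUSG00000028902; chromosome 4, 124714776 to 124732460), a subunit that links SF3A to the U2 RNA, had 116, 111, 91.8 and 93.0 CPM in knockout replicates 1 to 4, against 54.2, 23.6, 29.6 and 40.2 CPM in control replicates 1 to 4. Its groups were well apart, with a log2 fold change of 1.48 ± 0.26 (adjusted p = 0.002021). Sf3a1 and Sf3a2 encode the other SF3A subunits. Sf3a1 had 91.2 ± 7.53 CPM in knockout and 103 ± 15.6 CPM in control oocytes (-0.18, adjusted p = 0.4884), and Sf3a2 had 1.40 to 3.82 CPM in knockout and 0.988 to 1.36 CPM in control libraries, from 130 knockout and 49 control counts (1.21, adjusted p = 0.2242).

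Sf3b3 (ENSMUSG00000033732; chromosome 8, 110810492 to 110846803), a scaffold of repeated propeller domains, had 70.0, 60.3, 37.4 and 48.4 CPM in knockout replicates 1 to 4, against 18.7, 19.4, 22.2 and 29.2 CPM in control replicates 1 to 4. The groups did not overlap, and the log2 fold change was 1.27 ± 0.27 (adjusted p = 0.005329). Sf3b5 (ENSMUSG00000078348; chromosome 10, 13008450 to 13009182), a small subunit from a single-exon gene, had 159, 173, 165 and 98.2 CPM in knockout replicates 1 to 4, against 93.7, 79.7, 49.4 and 106 CPM in control replicates 1 to 4. Knockout replicate 4 lay below control replicate 4, so its groups overlapped, and the log2 fold change of 0.86 ± 0.26 was close to the threshold (adjusted p = 0.02902). The call was lost without knockout replicate 1, 2 or 3 or control replicate 2 or 3 (adjusted p of 0.05668 to 0.08442) and with a trend on gene length removed, where the value was 0.32 (adjusted p = 0.2532).

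Sf3b1, the subunit that clamps the branch point, had 927, 853, 945 and 975 CPM in knockout replicates 1 to 4, against 1065, 1036, 1039 and 873 CPM in control replicates 1 to 4. The groups overlapped through control replicate 4, and the log2 fold change was -0.12 ± 0.14 (adjusted p = 0.5755). Sf3b2, which binds Sf3b4, had 94.6 ± 7.33 CPM in knockout and 89.5 ± 5.87 CPM in control oocytes (0.08, adjusted p = 0.7573). Sf3b4 itself had 5.52 ± 2.75 CPM in knockout and 2.43 ± 1.86 CPM in control oocytes (1.18, adjusted p = 0.2222), and Sf3b6, which contacts the branch point region, had 40.7 ± 10.9 CPM in knockout and 22.6 ± 7.94 CPM in control oocytes (0.85, adjusted p = 0.06328). Sf3b6 passed the threshold with library totals alone (1.27, adjusted p = 0.008075), with 10 CPM required in 4 libraries (1.004, adjusted p = 0.02197), in DESeq2 (0.81, adjusted p = 0.04828), without knockout replicate 4 (1.01, adjusted p = 0.04684) and without control replicate 4 (1.08, adjusted p = 0.02741). It did not pass in the other alternatives, and its value was lowest with the length trend removed (0.29, adjusted p = 0.439). Summed by complex, SF3A genes summed to 184 to 211 CPM in knockout and 129 to 148 CPM in control libraries, without overlap. That gap is mostly Sf3a3, which averaged 103 CPM in knockout and 36.9 CPM in control oocytes. Sf3a1 had the lower mean in the knockout, and Sf3a2 averaged only 2.58 CPM in knockout and 1.11 CPM in control oocytes. SF3B genes, most of whose counts are Sf3b1, summed to 1230 to 1300 CPM in knockout and 1130 to 1290 CPM in control libraries.

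Among the 5 tri-snRNP genes Prpf8 was higher and none of the other 4 passed. Prpf8 (ENSMUSG00000020850; chromosome 11, 75486816 to 75509449), the U5 protein that forms the cavity of the catalytic core, had 152, 157, 167 and 162 CPM in knockout replicates 1 to 4, against 47.6, 80.4, 42.7 and 29.2 CPM in control replicates 1 to 4. The knockout libraries were close to each other and all above the control libraries, and the log2 fold change was 1.68 ± 0.27 (adjusted p = 0.00127), the smallest p of the 41 genes. Prpf6, which bridges U5 to U4 and U6, had 81.7, 75.9, 75.7 and 68.1 CPM in knockout replicates 1 to 4, against 78.3, 128, 124 and 79.3 CPM in control replicates 1 to 4. Control replicates 1 and 4 lay among the knockout libraries, so the groups overlapped (-0.44 ± 0.21, adjusted p = 0.1489). Of the U4/U6 proteins, Prpf3 had 20.2 ± 5.57 CPM in knockout and 22.6 ± 3.32 CPM in control oocytes (-0.16), Prpf4 had 2.38 ± 0.736 CPM in knockout and 5.33 ± 4.55 CPM in control oocytes (-1.16), and Prpf31 had 9.55 ± 6.20 CPM in knockout and 4.02 ± 1.68 CPM in control oocytes (1.25, adjusted p = 0.1408). The Prpf4 value was -0.40 without control replicate 4, which had 11.9 CPM.

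Among the other Prpf genes Prpf4b was lower. Prpf4b (ENSMUSG00000021413; chromosome 13, 34875494 to 34902877), a kinase that phosphorylates tri-snRNP proteins, had 22.9, 22.2, 37.2 and 13.2 CPM in knockout replicates 1 to 4, against 34.3, 67.8, 65.2 and 63.8 CPM in control replicates 1 to 4. Control replicate 1 stood below knockout replicate 3, so the groups overlapped, and the log2 fold change was -1.27 ± 0.33 (adjusted p = 0.01554). The call was lost without knockout replicate 2 (adjusted p = 0.05392) and with library totals alone (-0.91, adjusted p = 0.07057). Prpf18, a factor of the second catalytic step, Prpf38a, Prpf38b and Prpf19 did not pass, with log2 fold changes of 0.33, -0.37, -0.20 and 0.53. Prpf19, a ubiquitin ligase of the activated spliceosome, was scarce, with 1.66 to 5.02 CPM in knockout and 0.990 to 3.95 CPM in control libraries.

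Of the 10 tested SR protein genes 2 were higher, 1 was lower and 7 did not pass, where 13.6% of all tested genes were higher and 12.2% lower. Srsf9 (ENSMUSG00000029538; chromosome 5, 115327177 to 115333080) had 15.1, 21.3, 23.2 and 18.1 CPM in knockout replicates 1 to 4, against 3.63, 4.07, 2.39 and 5.80 CPM in control replicates 1 to 4. No control library came near a knockout library, and the log2 fold change was 2.29 ± 0.39 (adjusted p = 0.001655). Srsf1 (ENSMUSG00000018379; chromosome 11, 88047373 to 88053755), like Srsf9 an SR protein with a second, atypical RNA recognition motif, had 59.6, 62.8, 79.0 and 44.2 CPM in knockout replicates 1 to 4, against 25.1, 31.3, 33.0 and 36.4 CPM in control replicates 1 to 4. Here too the groups were apart, with a log2 fold change of 0.97 ± 0.24 (adjusted p = 0.01185).

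Srsf3 (ENSMUSG00000071172; chromosome 17, 29032673 to 29043366), the smallest SR protein, which also takes part in mRNA export, went the other way. It had 80.6, 88.1, 122 and 112 CPM in knockout replicates 1 to 4, against 216, 188, 179 and 223 CPM in control replicates 1 to 4. The groups did not overlap, and the log2 fold change was -1.001 ± 0.18 (adjusted p = 0.002594). Srsf7, related to Srsf3 and carrying a zinc knuckle, had 58.9, 59.2, 99.1 and 53.8 CPM in knockout replicates 1 to 4, against 79.2, 50.9, 63.8 and 85.0 CPM in control replicates 1 to 4, with overlapping groups (-0.04 ± 0.25, adjusted p = 0.9245). Per length, Srsf9 was at 14.3 ± 2.63 RPKM in knockout and 2.92 ± 1.04 RPKM in control oocytes.

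The remaining SR protein genes had log2 fold changes from -0.51 for Srsf10 to 0.66 for Srsf4, with Srsf5 at -0.46, Srsf2 at -0.05, Srsf11 at 0.04 and Srsf6 at 0.33, none past the threshold. Srsf10, a splicing repressor when dephosphorylated, had 144 to 230.0 CPM in knockout and 169 to 329 CPM in control libraries. Srsf2, which binds exonic enhancers, had 20.3 ± 2.37 CPM in knockout and 20.9 ± 5.92 CPM in control oocytes. Srsf4 was near the floor, at 1.04 ± 0.710 CPM in knockout and 0.666 ± 0.677 CPM in control oocytes, and Srsf12 had 0 knockout and 18 control counts, nearly all in control replicate 1.

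The authors' deposited table, which lists 2709 genes with adjusted p-values up to 0.009996, holds 11 of the 43 genes, 6 higher and 5 lower in the knockout, where it holds 14.7% of all genes with a count. All 11 were among the 12 called here, and Sf3b5 is the gene called here that it does not list. The unshrunken log2 fold changes in the authors' deposited table were 1.64 for Prpf8, 2.25 for Srsf9, -1.04 for Srsf3 and -1.08 for Snrpg. For Snrpc the authors' deposited table gives 3.48 unshrunken and 2.45 shrunken. The table was made from the same counts, so it is no separate measurement.

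The rest of the splicing machinery, 181 tested genes in 9 lists, had 28 higher (15.5%) and 39 lower (21.5%), with a median log2 fold change of -0.04. Over all tested genes 13.6% were higher and 12.2% lower, the shares beside which the counts of each list stand. Most Lsm proteins form the ring of U6 or a cytoplasmic ring for mRNA decay. Of 9 tested Lsm genes 4 were higher (44.4%) and 0 lower, with Lsm4 at 5.97, Lsm6 at 1.76, Lsm3 at 1.69 and Lsm2 at 1.34 (median 0.72). The counts were the same at an unadjusted p under 0.05, where 20.3% of all tested genes were higher and 17.6% lower. They were also the same in DESeq2, which tested 10 Lsm genes and had 15.8% of all genes higher and 13.5% lower. Lsm4 averaged 7.82 CPM in knockout and 0.114 CPM in control oocytes, from 387 knockout and 5 control counts, so the size of its fold change is uncertain. Of 16 other genes for U snRNP proteins 6 were higher, among them the U5 GTPase gene Eftud2 (2.30), the minor spliceosome genes Rnpc3 (1.21) and Pdcd7 (0.82) and the U4 binding protein gene Snu13 (1.09), and 1, the tri-snRNP gene Snrnp27, was lower (-0.81), with a median of 0.83. The 6 higher genes were 37.5% of the 16 and the 1 lower gene 6.25%. With library totals alone 9 of the 16 were higher and 0 lower, where 21.5% of all tested genes were higher and 4.61% lower. With the length trend removed 2 were higher and 3 lower, where the shares were 9.29% and 21.1%. DESeq2, which tested 17 genes of the list, had 9 higher and 1 lower, where 15.8% of all genes it tested were higher and 13.5% lower. Of 18 factors of the 3′ splice site and A complex 4 were higher (22.2%) and 1 lower (5.56%), with a median of 0.53. Higher were the helicase genes Ddx39b (2.91) and Ddx42 (1.42), Puf60 (2.38) and Rbm17 (0.73), and Smndc1 was lower (-1.01).

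SR-related proteins and the kinases that phosphorylate SR proteins had 0 higher and 8 lower (33.3%) of 24. Over all tested genes 13.6% were higher and 12.2% lower. The lower genes of this list were led by Pnn (-1.22), the kinase gene Srpk2 (-0.94), Srrm1 (-0.80) and Scaf8 (-0.90). Srpk2 averaged 326 CPM in knockout and 624 CPM in control oocytes, and Pnn 98.9 CPM in knockout and 229.9 CPM in control oocytes. DESeq2 also had 0 higher and 8 lower, where 15.8% of all genes it tested were higher and 13.5% lower. At an unadjusted p under 0.05 edgeR had 1 higher and 9 lower, where the shares were 20.3% and 17.6%. The median of the 24 was -0.40, but 0.02 with library totals alone, and -0.47 there relative to all tested genes. With those totals 1 was higher and 3 were lower, where 21.5% of all tested genes were higher and 4.61% lower. Of 46 hnRNP genes and regulators of alternative splicing 2 were higher (4.35%) and 16 lower (34.8%). The median of the 46 was -0.39 (-0.03 with library totals alone). Relative to all tested genes it was -0.49 (-0.52 with those totals). The higher genes were Rbm4b (3.46) and Hnrnpd (0.85), and the lower genes were led by Ptbp2 (-1.27), Tardbp (-1.11), Hnrnph1 (-0.92) and Hnrnpl (-1.33). With library totals alone 4 of the 46 were higher and 7 lower, where 21.5% of all tested genes were higher and 4.61% lower. With the length trend removed 1 was higher and 21 lower, where the shares were 9.29% and 21.1%. U1-associated factors had 1 higher of 8 (12.5%), Luc7l (1.31), and 3 lower (37.5%), Fnbp4 (-1.28), Nktr (-1.62) and Rbm25 (-0.90). The median of the 8 was -0.21, and 0.19 with library totals alone. Relative to all tested genes it was -0.31, and -0.30 with those totals.

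In the exon junction complex and its partners, 2 of 8 were higher and 4 lower. Rbm8a, whose protein pairs with Magoh in the core of the complex, was higher at 2.20 and the core helicase gene Eif4a3 at 0.67, while Magoh (-0.81), Magohb (-1.17), Upf3b (-1.38) and Upf1 (-1.09) were lower. The list had 2 higher and 3 lower with library totals alone, where 21.5% of all tested genes were higher and 4.61% lower. It had 1 higher and 4 lower with the length trend removed, where the shares were 9.29% and 21.1%. Rbm8a averaged 46.2 CPM in knockout and 10.1 CPM in control oocytes, and Magoh 288 CPM in knockout and 505 CPM in control oocytes. Among 16 genes of snRNP assembly and import 4 were higher (25.0%), Ddx20 (3.84), Gemin6 (1.35), Clns1a (1.01) and Ncbp2 (0.79). Of the same 16, 2 were lower (12.5%), Smn1 (-0.86) and Larp7 (-0.77). With library totals alone 7 of the 16 were higher and 1 lower, where 21.5% of all tested genes were higher and 4.61% lower. With the length trend removed 1 was higher and 2 lower, where the shares were 9.29% and 21.1%. Smn1, the central protein of the complex that loads Sm rings onto snRNA, averaged 169 CPM in knockout and 307 CPM in control oocytes. Of 36 genes of the Prp19 complex and the activated spliceosome 5 were higher, among them Ddx41 (3.50), Aqr (1.34), Dhx8 (1.31) and Bud31 (1.24). The 4 lower genes were Snw1 (-0.75), Cdc40 (-0.64), Cwc15 (-0.59) and Bcas2 (-0.55). The median of the 36 was 0.07 (-0.25 with the length trend removed). Relative to all tested genes it was -0.035 (-0.024 with that trend removed). The 5 higher and 4 lower genes were 13.9% and 11.1% of the 36, near the shares over all tested genes. With library totals alone there were 8 higher and 0 lower, where 21.5% of all tested genes were higher and 4.61% lower. With the length trend removed there were 4 higher and 9 lower, where the shares were 9.29% and 21.1%. DESeq2, which tested 37 genes of the list, had 6 higher and 4 lower, where 15.8% of all genes it tested were higher and 13.5% lower. At an unadjusted p under 0.05 edgeR had 8 higher and 5 lower, where the shares were 20.3% and 17.6%.

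**Figure D5:**
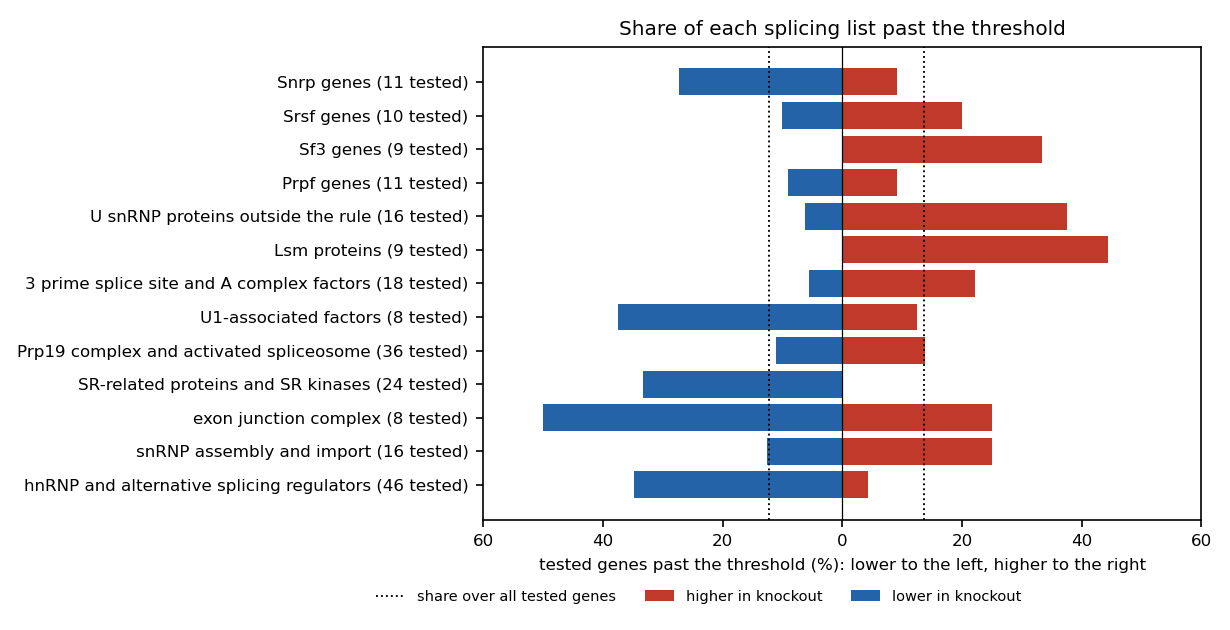
Percentage of the tested genes of each family or list that were higher (right) or lower (left) in the knockout, with dotted lines at the shares over all tested genes, 13.6% higher and 12.2% lower. Sf3 and Lsm genes have no lower gene, and SR-related proteins and SR kinases no higher one; some lists hold only 8 or 9 tested genes.

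Gene length and 3′ ends were set beside the fold changes, because values from amplified poly(A) RNA can depend on them. Spearman's rho between log2 fold change and annotated length was 0.04 over the 41 genes and -0.15 over all tested genes, a description across genes that share the same libraries. With a loess trend on length removed from each library, 6 of the 41 were higher and 11 lower, where 9.29% of all tested genes were higher and 21.1% lower, and 11 of the 12 genes called without this step were called with it. The Snrp genes, with a median annotated length of 1372 bases against 3580 over all tested genes, then had 7 lower genes. The letters of a cytoplasmic polyadenylation element, TTTTAT or TTTTAAT, were found in the last 100 bases of the longest protein-coding transcript of 9 of the 41 genes (22%), against 20.8% of tested genes. They were in 2 of the 7 higher genes, Prpf8 and Sf3a3, and in 0 of the 5 lower genes, counts too small to compare. Over all tested genes the order was the reverse, with these letters in 15.1% of higher and 30.8% of lower genes.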

How the data were processed

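Single MII oocytes, 4 per genotype, were grouped by the genotype label. GSNAP, featureCounts 1.4.4, DESeq2 1.3.79 and mm10 are named in the submitters' processing notes. Per the file headers, the deposited counts are reads per Ensembl 69 gene at a mapping quality of at least 1 without regard to strand, so near-identical copies can lose or share reads and overlapping antisense genes cannot be separated. The libraries were 75-base single reads without molecular identifiers, so an interval from a library's own counts would cover counting error only. The SEs given here rest on the spread among libraries as well. The authors' deposited comparison table gives log2 fold changes, p-values, a score (the standard error of the fold change), a normalized signal per library and RPKM. The comparison here used the deposited counts, and the authors' log2 values were only set beside it.

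All values in the 8 count columns were whole numbers of at least 0, and every row named a gene. Symbols matched for 35449 identifiers from a gene name table and 10 from the deposited table, and 1765 stayed unnamed. Within-group libraries differed by far more than sampling noise (chi-square per degree of freedom of at least 32.4), so each was counted once. The test was the quasi-likelihood F test of edgeR 4.0.16 (R 4.3.3) with TMM factors, filterByExpr and genotype as covariate on all 8 libraries, with Benjamini-Hochberg adjustment over 11066 genes and a threshold of 0.05. The fit was tested on simulated data. The SE is the size of the log2 fold change divided by the square root of F. RPKM here is the composition-scaled CPM per kilobase of the count table's gene length, all annotated exons together, so genes with long rare exons read low. Gene types and transcript ends came from GENCODE M21 and promoters from RefSeq on GRCm38.p6, the assembly that mm10 names.

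1 gene that meets the symbol pattern is not reported here and enters no count over the families. The genes, the lists of other splicing factors and the markers were chosen with earlier results of these data known. Called genes and the gene with the highest mean RPKM of each family are given in every library, and of each other list up to 4 called genes per direction by smallest p. Sf3b1, the grouping by role, the motifs and the promoters shown were chosen after values were seen. No set test was made. Each result was recomputed with DESeq2 1.42.0, with median-of-ratios size factors or totals alone in edgeR, without a filter or with 10 CPM required in 4 libraries, with the replicate number as a block, with removal of a length trend (loess, span 0.5), at an adjusted p under 0.01, with each library left out in turn and, added after the data were seen, with Snrpert counted as a Snrp gene.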

Additional observations from a re-analysis of the deposited data

Results flagged for a closer look

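Among 82 groups of 4 libraries, 2 for each of the 41 tested genes, 4 held a library whose gap to the others was above Dixon's 95% critical value, where chance flags about 1 in 20 groups. Prpf4b had 34.3 CPM in control replicate 1, below the 63.8 to 67.8 CPM of the other control libraries. Srsf7 had 99.1 CPM in knockout replicate 3, against 53.8 to 59.2 CPM in the others of its group. Srsf2 had 23.8 CPM in knockout replicate 4, against 19.1 CPM in each of the others. Sf3b1 had 873 CPM in control replicate 4, against 1036 to 1065 CPM in the others. The 4 flags fell in 4 different libraries, and no cause was tested.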

How the results depend on the processing

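With median-of-ratios size factors and with no filter 7 genes were higher and 5 lower, the same 12 genes. With library totals alone 2 were lower in all, 1 of them a Snrp and 0 a Prpf gene, and 2 Prpf genes were higher. Over all tested genes 4.61% were then lower and 21.5% higher. The Snrp, Srsf, Sf3 and Prpf medians were -0.003, 0.407, 1.278 and 0.227, beside 0.490 over all tested genes. With the length trend removed 11 were lower, 7 of them Snrp, 2 Srsf and 2 Prpf genes, where 21.1% of all tested genes were lower. The same 4 medians were then -0.937, -0.305, 0.319 and -0.474, beside -0.223 over all tested genes. Relative to all tested genes they were -0.713, -0.081, 0.543 and -0.251. DESeq2 had 8 higher and 7 lower, 5 of the lower being Snrp genes, where 15.8% of all genes it tested were higher and 13.5% lower. At an adjusted p under 0.01 there were 4 higher and 3 lower, with 0 Snrp and 1 Srsf genes higher and 0 Prpf genes lower, where 6.75% of all tested genes were higher and 5.82% lower. At 10 CPM in 4 libraries 30 genes were tested and 0 Snrp genes were higher, because Snrpc was not tested. With each library left out in turn, 5 to 8 genes were higher and 4 to 6 lower. In these fits 8.91 to 13.7% of all tested genes were higher and 7.37 to 10.7% lower. By family, 0 to 1 Snrp genes were higher, 3 to 4 Snrp genes lower, 2 to 4 Sf3 genes higher and 0 to 1 Prpf genes lower. The Snrp median then ran from -0.502 to -0.283, the Sf3 median from 0.722 to 1.016, the Prpf median from -0.281 to -0.058 and the Srsf median from -0.088 to 0.151. No log2 fold change of a called gene changed sign under any of these alternatives. The cause of these changes was not tested.

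The replicate numbers did not pair the libraries, since same-numbered libraries correlated at -0.117 to -0.021 in their deviations from the group means. With the replicate number as a block 5 genes were higher and 5 lower, with 0 Snrp genes higher and 1 Prpf gene lower, where 9.85% of all tested genes were higher and 7.78% lower, and Snrpc (adjusted p = 0.1004) and Sf3b5 (adjusted p = 0.07257) were no longer called. Under the block the other U snRNP proteins had 3 higher and 1 lower, the hnRNP list 2 higher and 10 lower, the exon junction complex 1 higher and 3 lower, snRNP assembly 3 higher and 1 lower, and the Prp19 complex list 4 higher and 0 lower. Snrpb, Snrpd2, Srsf4 and Sf3a2 rested on 53 to 130 counts in the knockout and 27 to 49 in the control libraries, and their differences did not pass the test.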
